A study of Homo sapiens with 8 samples.

Results

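The genes described here are the mitochondrial ribosomal protein (MRP) genes. They were chosen by name, as the protein-coding genes of GENCODE release 29 whose symbol starts with MRPL or MRPS followed by a digit, and they number 78 of the 58735 genes in the deposited tables. Of these, 49 are named for the large ribosomal subunit (MRPL) and 29 for the small subunit (MRPS). They lie on 21 chromosomes, and all 78 had enough reads to be tested.

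The mitochondrial ribosome translates the few messenger RNAs that mitochondrial DNA encodes, all of them for subunits of the respiratory chain and the ATP synthase. Its ribosomal RNAs come from mitochondrial DNA, whereas every one of its proteins is encoded in the nucleus, made in the cytosol and imported. The large subunit holds the peptidyl transferase center and the exit tunnel, and the small subunit holds the mRNA and the decoding center.

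RNA was measured in U2OS cells, a human osteosarcoma line, that carried a stably integrated lentiviral short hairpin RNA (shRNA). Cells with a control shRNA (control cells) and cells with an shRNA against WSB2 (KD cells), a substrate receptor of a ubiquitin ligase, were left unstimulated or received TNF-α for 5 h, which gave 4 groups of 2 libraries. All 4 groups were stably transduced cells of 1 cell line, and which WSB2 shRNA was used is not given in the sources used here. Nothing in the labels says that the 2 libraries of a group came from separate cultures, so p-values measure only the spread between these libraries, which may be technical.

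The libraries held 15601098 to 18677023 reads, of which 585827 in all fell on MRP genes. WSB2 itself was at 27.7 and 28.0 FPKM (read fragments scaled to exon length and library size) in unstimulated control cells and at 8.38 and 8.52 in unstimulated KD cells. With TNF-α it was at 25.0 and 25.3 FPKM in control cells and at 9.002 and 9.183 in KD cells, so the knockdown was present in all 4 KD libraries. The 2 unstimulated KD libraries stood apart from the other 6. Their mean GC content weighted by reads was 49.95% and 49.47%, against 52.57% to 53.25% in the others, their mitochondrially encoded share of reads was 4.10% and 4.42% against 1.11% to 2.03%, and 26225 and 26397 genes had a read in them against 22072 to 22957. The 2 unstimulated control libraries also differed more from each other than other replicate pairs did, with a variance 30.1 times the sampling noise against 2.45 to 7.23 times in the other groups. Of the bone and stromal markers examined, SPARC (216 to 293 FPKM) and COL1A1 (172 to 269 FPKM) were high in every library, and the osteoblast markers RUNX2 (1.29 to 2.94 FPKM) and ALPL (1.22 to 5.41 FPKM) were low, while COL1A2 (at most 0.0934 FPKM) and the osteoblast markers SP7 and IBSP were at or near 0 and the leukocyte marker PTPRC did not exceed 0.0770 FPKM. Of these bone and stromal markers and vimentin, ALPL (-0.69), VIM (-0.51), COL1A1 (-0.47) and SPARC (-0.38) fell and RUNX2 (0.46) rose on the log2 scale in unstimulated KD cells by the limma test used below, and their part in the results was not tested.

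MRP genes differed widely in level. The FPKM scale divides by the merged exon length of all annotated transcripts, so levels of different genes can be compared on it only roughly. A gene whose merged exons are longer than its expressed transcript reads too low. Merged exons span 16393 bases in MRPL42 and 6432 in MRPL46, and what part this had in the order of levels was not tested. The median MRP gene had a mean of 20.6 FPKM over the 8 libraries, 59 were above 10 FPKM and 11 below 5 FPKM, and the highest was 181 times the lowest. MRPS34, a protein particular to the mitochondrial small subunit, had the highest mean (143 FPKM) and ranged from 72.5 to 202 FPKM between libraries. MRPL14, a conserved large-subunit protein at the interface with the small subunit, followed at 136 FPKM with a range of 49.9 to 179 FPKM. The ranges of these neighbors in the order overlapped. Each range spans all groups, and whether the genes differed within libraries was not tested. MRPL51 came next at 91.9 FPKM (51.4 to 126 FPKM). The lowest were MRPL38 (0.792 FPKM), MRPL46 (1.52 FPKM) and MRPS24 (1.61 FPKM), and the ranges of MRPL46 (1.08 to 2.03 FPKM) and MRPS24 (0.310 to 3.002 FPKM) overlapped. Some of these levels are limited by the annotation. MRPL38 shares 37.5% of its exon length with another gene on the same strand, MRPS24 shares 23.2% and MRPL12 shares 68.2%, in its case with a read-through gene listed at 0 reads in every library. Reads in such shared stretches can be lost in counting, so the level of these genes relative to other genes may be understated, and this was not tested. In all, 16 MRP genes had such same-strand overlaps. The 75 named MRP pseudogenes together had 388 reads.

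The stretches before the start sites of some of these genes are shown because promoters of mitochondrial ribosomal protein genes are known for short motifs bound by NRF1, by ETS factors such as GABP and by YY1. RefSeq promoter sequences (GRCh38.p14, 250 bases before to 50 after the start) matched 70 of the 78 genes. MRPL10, MRPL13, MRPL15, MRPL2, MRPL21, MRPL23, MRPL35 and MRPS28 had no entry. The motifs were searched on both strands. The ETS letters CCGGAAG occurred in 29 of the 70 promoters (41.4%) and in 10.7% of all 27305 promoters of the same length. The YY1 letters ATGGCGGC occurred in 19 (27.1%) against 3.21% of all promoters, and the NRF1 letters GCGCANGCG in 13 (18.6%) against 8.05%. The E-box CACGTG, which MYC and related factors bind, was found in 7 (10.0%) against 7.43%. MRPL12 and MRPL50, the MRP genes with the largest fall and the largest rise in unstimulated KD cells described further on, are shown with MRPL54, MRPS31 and MRPL19, which moved down, up and up. Each line gives the 150 bases before the RefSeq start on the gene's own strand, 5′ to 3′, with letters of these motifs in capitals. The ETS letters lie 21 bases before the start of MRPL54 and 32 before that of MRPS31, the YY1 letters 54 bases before that of MRPL19, and the stretches of MRPL12 and MRPL50 hold none of the 4 motifs. The full promoter of MRPL50 holds the YY1 letters once, outside the stretch shown, and that of MRPL12 holds none of the motifs. Up to 18 bases at the 3′ end of these stretches fall inside the GENCODE gene model (MRPL54). The stretches are chr17:81703217-81703366 (plus strand), chr19:3762532-3762681 (plus), chr9:101398619-101398768 (minus), chr13:40771191-40771340 (minus) and chr2:75646633-75646782 (plus) of GRCh38.p14.
MRPL12: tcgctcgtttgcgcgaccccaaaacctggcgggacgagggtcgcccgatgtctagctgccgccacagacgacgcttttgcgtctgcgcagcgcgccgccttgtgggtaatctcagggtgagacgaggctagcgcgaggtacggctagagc
MRPL54: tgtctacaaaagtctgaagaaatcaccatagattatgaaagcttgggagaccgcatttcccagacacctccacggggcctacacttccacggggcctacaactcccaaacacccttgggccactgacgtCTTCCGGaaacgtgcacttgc
MRPL50: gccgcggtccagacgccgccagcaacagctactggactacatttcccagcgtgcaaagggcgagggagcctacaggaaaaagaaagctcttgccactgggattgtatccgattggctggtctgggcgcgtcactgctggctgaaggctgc
MRPS31: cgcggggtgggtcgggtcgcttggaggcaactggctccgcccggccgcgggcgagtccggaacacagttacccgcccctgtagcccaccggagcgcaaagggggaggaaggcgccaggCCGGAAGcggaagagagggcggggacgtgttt
MRPL19: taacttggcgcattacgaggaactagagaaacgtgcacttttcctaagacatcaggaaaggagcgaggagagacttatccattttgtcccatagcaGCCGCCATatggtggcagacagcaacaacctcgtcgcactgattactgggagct

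Knockdown of WSB2 in unstimulated cells went with lower levels of most MRP genes. Of the 78 genes, 50 were lower in KD than in control cells and 5 were higher, at an adjusted p under 0.05 by limma on log2(FPKM + 1). That is 64.1% lower and 6.41% higher, where 30.2% of all 16528 genes tested were lower and 29.8% higher in the same comparison. The median log2 fold change of the MRP genes was -0.67 and that of all genes -0.0010. Without a test, both KD libraries were below both control libraries in 57 MRP genes (73.1%, against 39.7% of all genes) and above both in 10 (12.8%, against 40.1%). In bulk RNA, fewer transcripts per cell and fewer cells with the transcript cannot be told apart. The split depended on how libraries were scaled. With libraries scaled to their total reads, 45 were lower and 13 higher (20.9% and 39.4% of all genes), all genes then had a median of 0.13, and the MRP median of -0.43 lay 0.56 below it.

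**Figure D1:**
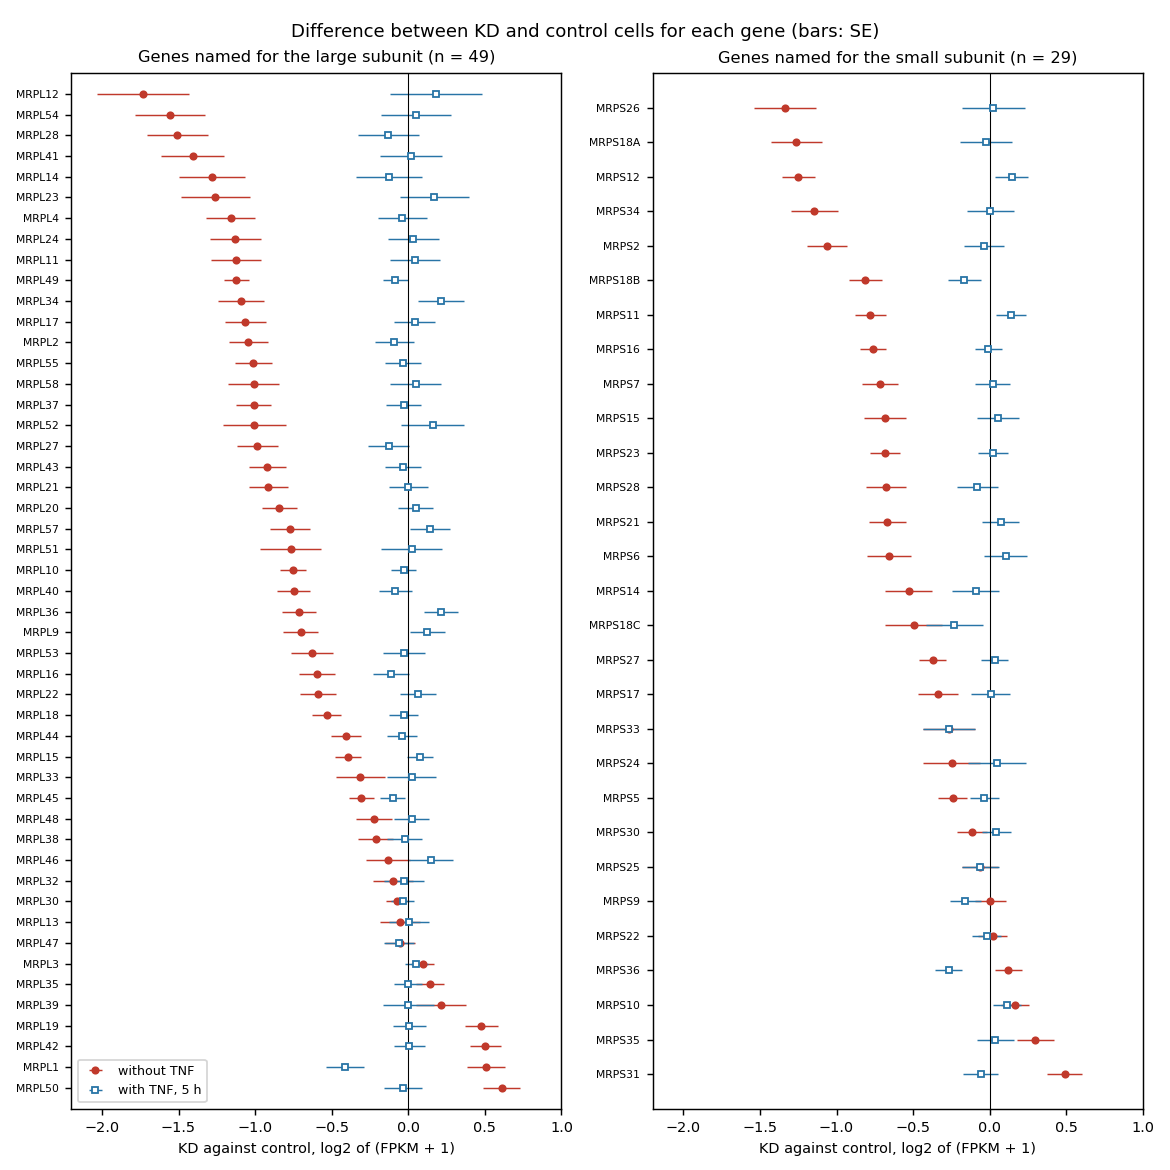
Difference between KD and control cells for every MRP gene, as a log2 fold change of FPKM + 1 (x axis) with SE bars, without TNF-α (red circles) and with TNF-α for 5 h (blue squares), for genes named for the large (left, n = 49) and the small subunit (right, n = 29). Without TNF-α the values run from -1.73 (MRPL12) to 0.61 (MRPL50), and with TNF-α they lie between -0.41 and 0.21.

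MRPL12 showed the largest fall of the MRP genes and the fifth largest of all genes tested on this scale. It was picked for description with this fall in the same data known, so its rank and p-value are not independent support. Its protein sits in several copies at the stalk of the large subunit, where translation factors dock, and it has also been described as a partner of the mitochondrial RNA polymerase. The gene (ENSG00000262814) lies on chromosome 17 at 81703357 to 81707526 on the plus strand. It was at 55.6 and 36.4 FPKM in the unstimulated control libraries and at 17.96 and 9.12 FPKM in the unstimulated KD libraries. The KD libraries were lower than both controls, and within each group the libraries differed by a wide margin. The log2 fold change was -1.73 (SE 0.30, limma adjusted p = 0.00170), and -1.10 (adjusted p = 0.00568) once values were corrected for exon GC and for length. The genes of MRPL11 and MRPL10, whose proteins neighbor MRPL12, were called lower as well. MRPL11, which binds the ribosomal RNA at the base of the stalk, was at 52.0 and 35.7 FPKM in control cells and at 20.9 and 17.6 FPKM in KD cells (log2 fold change -1.13, SE 0.16, limma adjusted p = 0.000747). MRPL10, which anchors MRPL12, was at 23.0 and 23.2 FPKM against 14.3 and 12.4 FPKM (-0.75, SE 0.08, limma adjusted p = 0.000272), with the closest agreement between replicates of these genes. Corrected for GC and length, the values were -0.75 for MRPL11 and -0.44 for MRPL10, both still called.

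**Figure D2:**
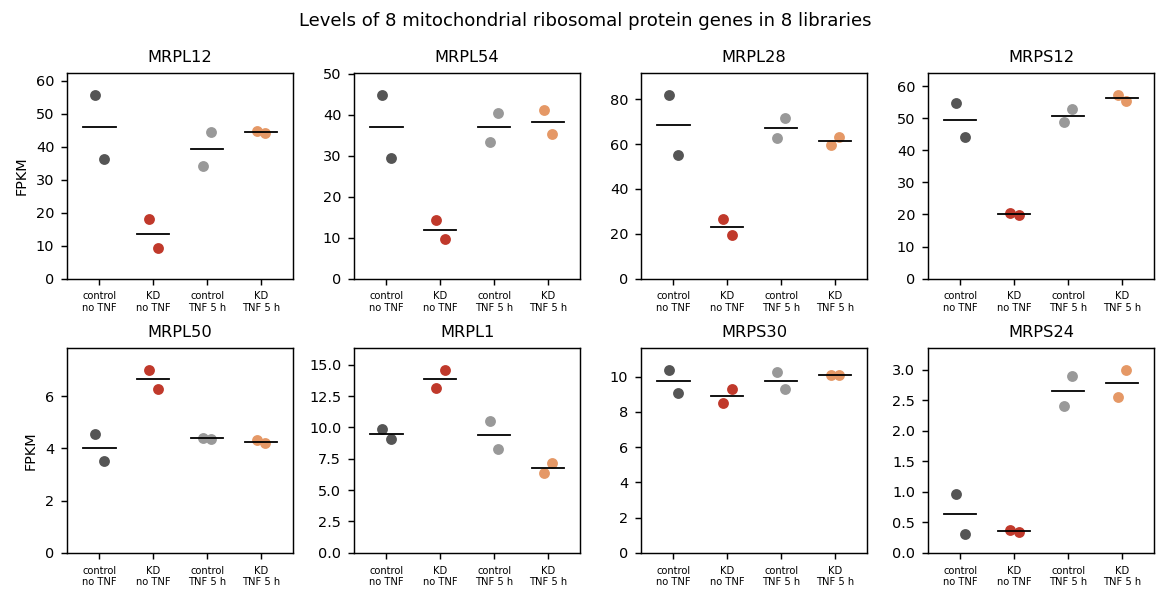
FPKM (y axis, from 0) of 8 MRP genes in each of the 8 libraries, grouped by shRNA and TNF-α (x axis), with points for libraries and lines for group means of 2. MRPL12, MRPL54, MRPL28 and MRPS12 were lowest in the unstimulated KD libraries, MRPL50 and MRPL1 were highest there, MRPS30 stayed between 8.50 and 10.4 FPKM, and MRPS24 was between 2.40 and 3.002 FPKM in all libraries with TNF-α and no higher than 0.970 FPKM in those without.

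Among the genes named for the large subunit, 34 of 49 fell (69.4%, against 30.2% of all genes) and 4 rose (8.16%, against 29.8%). MRPL54, a protein particular to the mitochondrial ribosome, was at 44.8 and 29.5 FPKM in control cells and at 14.2 and 9.61 FPKM in KD cells. MRPL28 was at 81.8 and 54.9 FPKM against 26.8 and 19.6 FPKM. MRPL41 was at 69.5 and 45.4 FPKM against 23.3 and 18.1 FPKM. In these genes the lower control library was above the higher KD library, and replicate 1 was above replicate 2 in both groups. Their log2 fold changes were -1.55 (SE 0.23), -1.51 (SE 0.20) and -1.41 (SE 0.20), and after the GC and length correction -0.95, -0.87 and -0.77, each still called. MRPL58, a peptidyl-tRNA hydrolase built into the large subunit that can free stalled chains, fell by 1.01 on the log2 scale (SE 0.17, limma adjusted p = 0.00137). MRPL44, which has a ribonuclease III-like fold, fell by 0.41 (SE 0.10, limma adjusted p = 0.00846), a call lost with libraries scaled to total reads (-0.14, adjusted p = 0.244). The 2 genes of highest level in this subunit, MRPL14 (-1.28, SE 0.21) and MRPL51 (-0.77, SE 0.20), were among those that fell. Without unstimulated KD replicate 2, MRPL51 was at -0.50 and no longer called (limma adjusted p = 0.0778).

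Of the genes named for the small subunit, 16 of 29 fell (55.2%, against 30.2% of all genes) and 1 rose (3.45%, against 29.8%). Their median log2 fold change was -0.53, against -0.75 for the large subunit. Whether the subunits differed was not tested. The median exon GC content was 46.8% in the small and 50.2% in the large subunit. After correction for GC content and length the median log2 fold changes were -0.51 and -0.50. MRPS26 was at 54.3 and 40.3 FPKM in control cells and at 22.1 and 14.5 FPKM in KD cells, a log2 fold change of -1.34 (SE 0.20). MRPS12, a core protein at the decoding center, was at 54.8 and 44.1 FPKM against 20.5 and 19.7 FPKM. Its fall of 1.25 on the log2 scale had an SE of 0.11 (limma adjusted p = 0.000155). MRPS34 (-1.14, SE 0.15), MRPS2 (-1.06, SE 0.13) and MRPS7 (-0.72, SE 0.12), of which MRPS2 and MRPS7 have bacterial counterparts, fell as well. After the GC and length correction MRPS26 (-0.71), MRPS12 (-0.72), MRPS34 (-0.51), MRPS2 (-0.42) and MRPS7 (-0.45) were still called lower. MRPS5, another conserved protein, was at 14.3 and 12.1 FPKM in control cells and at 11.3 and 10.6 FPKM in KD cells and was not called (-0.24, SE 0.09, limma adjusted p = 0.0566), but was with the correction (-0.36, adjusted p = 0.0238). The MRPS18 paralogs moved to different extents. MRPS18A fell by 1.26 (SE 0.17) and MRPS18B by 0.81 (SE 0.11) on the log2 scale, and MRPS18C was just outside the threshold at -0.50 (SE 0.19, limma adjusted p = 0.0501). With the correction all 3 were called lower, at -0.74, -0.51 and -1.16. MRPS18A and MRPS30 are structurally part of the large subunit despite their names. MRPS30 was at 10.4 and 9.06 FPKM in control cells and at 8.50 and 9.33 FPKM in KD cells, so its groups overlapped (-0.11, SE 0.10, limma adjusted p = 0.344), while the corrected value was called lower (-0.81, adjusted p = 0.000824). Counted with MRPS18A and MRPS30 in the large subunit, 35 of 51 large-subunit and 15 of 27 small-subunit genes fell. The 27 still include MRPS36, which was not called here and whose protein is now assigned outside the ribosome, as described below. The last gene inside the threshold was MRPS14 (-0.53, limma adjusted p = 0.0188) and the next outside after MRPS18C was MRPS17 (-0.34, limma adjusted p = 0.0517).

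The 5 MRP genes that rose were MRPL50, MRPL1, MRPL42, MRPS31 and MRPL19. MRPL50 was at 4.56 and 3.502 FPKM in control cells and at 7.03 and 6.28 FPKM in KD cells (log2 fold change 0.61, SE 0.12, limma adjusted p = 0.00331). MRPL1, a conserved protein of the mobile stalk near the tRNA exit, was at 9.85 and 9.04 FPKM against 13.1 and 14.6 FPKM (0.51, SE 0.12). The others rose by 0.50 (MRPL42, SE 0.10), 0.49 (MRPS31, SE 0.11) and 0.48 (MRPL19, SE 0.11). In none of the 5 did the KD libraries overlap the control libraries, and 40.1% of all genes were likewise higher without overlap. The 5 were picked as called in these same libraries, so this is not separate support. These 5 genes had exon GC contents of 35.0% to 40.6%, below the MRP median of 48.4%. After correction for GC content and length none of the 5 was called higher. The corrected values were 0.11 for MRPL1 and 0.02 for MRPS31, the sign turned for MRPL50 (-0.05) and MRPL19 (-0.05), and MRPL42 was called lower (-0.32, limma adjusted p = 0.0367).

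Among MRP genes the difference in unstimulated cells followed the GC content of the exons. Across the 78 genes, which share the same 8 libraries, the log2 fold change and GC content had a Spearman correlation of -0.83. Across 16520 tested genes of known GC content it was -0.69. Of all 16528 genes tested, 30.2% fell and 29.8% rose. Of the 26 MRP genes lowest in GC (35.0% to 43.7%), 5 fell and 5 rose, which are smaller shares than those of all genes. Of the 26 in the middle (44.9% to 52.0%), 20 fell and none rose. Of the 26 highest in GC (52.2% to 71.9%), 25 fell and none rose, and the median log2 fold changes of these sets were -0.05, -0.68 and -1.12. After values had been corrected in each library for GC content and gene length, the correlation was -0.13. The correction removes each library's trend with GC content over all genes, so a weaker correlation follows from how it works. In that fit 61 MRP genes were lower, 1 was higher (MRPL38, 0.37) and the median was -0.51, with 18, 21 and 22 genes lower in the 3 sets, where 28.1% of all genes were lower, 23.7% higher and their median was -0.02. Of the 50 genes called lower without the correction, 47 were also called lower with it. The GC content of the reads and the mitochondrial share of reads moved with the unstimulated KD group, and what part they had in the differences was not tested beyond this correction.

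**Figure D3:**
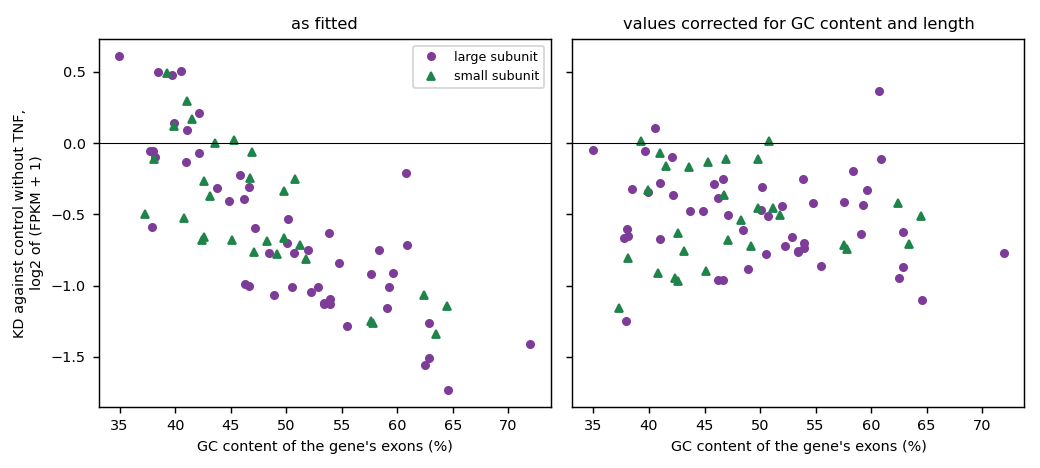
Log2 fold change of FPKM + 1 between KD and control cells without TNF-α (y axis) against the GC content of the exons in percent (x axis) for 78 MRP genes, as fitted (left) and after correction for GC content and length (right), with circles for the large and triangles for the small subunit. The slope on the left (Spearman correlation -0.83) is mostly absent on the right (-0.13), where 74 of 78 genes lie below 0. The correction removes trends with GC content by design.

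The replicates of the unstimulated groups also differed from each other in these genes. In unstimulated control cells 74 of 78 MRP genes were lower in replicate 2 than in replicate 1, by a median of 0.33 on the log2 scale, while the median of all genes differed by 0.0005. In unstimulated KD cells 58 were lower in replicate 2. With TNF-α the counts were 28 in control and 39 in KD cells. The summed level of the MRP genes was 2588 and 1999 FPKM in unstimulated control cells, 1392 and 1238 FPKM in unstimulated KD cells, and 2178 to 2285 FPKM in the 4 libraries with TNF-α. Both unstimulated KD libraries were thus below all others. The median of the MRP genes ranged from -0.79 to -0.50 when single libraries were left out, the smallest fall being without control replicate 1.

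**Figure D4:**
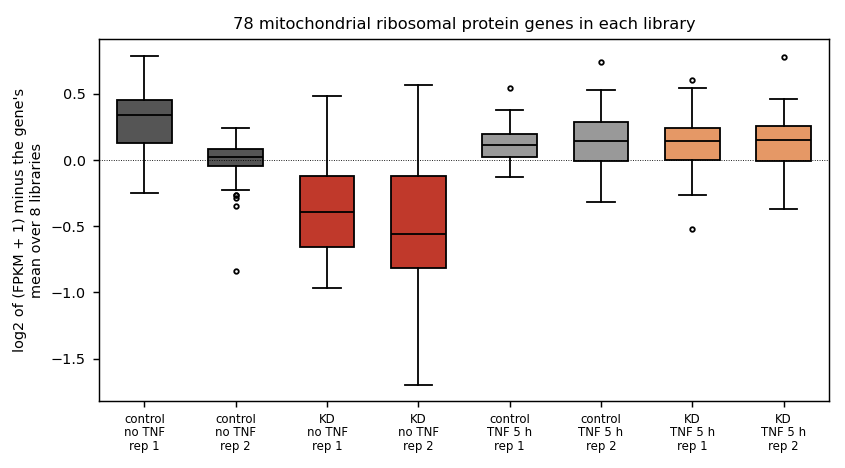
Level of 78 MRP genes in each library (x axis) as log2 of FPKM + 1 minus the gene's mean over the 8 libraries (y axis), with boxes from the lower to the upper quartile, lines at medians and whiskers to 1.5 box lengths. Medians were -0.39 and -0.56 in the unstimulated KD libraries, 0.34 and 0.02 in the unstimulated control libraries, and 0.11 to 0.15 in the libraries with TNF-α.

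With TNF-α, no MRP gene was called different between KD and control cells. Of all genes, 0.0605% were higher and 0.0545% lower in this comparison, so few calls were made anywhere. At an unadjusted limma p under 0.05 there were 2 MRP genes, and voom on recovered reads also called 0. The median log2 fold change was 0.0025, and 75 of the 78 genes lay within 0.25 of 0. The 95% intervals reached 0.28 to either side at the median and 0.17 to 0.70 over the genes. MRPL12 was at 34.3 and 44.5 FPKM in control cells and at 44.6 and 44.1 FPKM in KD cells, so the groups were close and the interval of the log2 fold change ran from -0.52 to 0.88. MRPS12 was at 48.9 and 52.8 FPKM against 57.2 and 55.4 FPKM. The genes with an unadjusted p under 0.05 were MRPL1, at 10.5 and 8.24 FPKM in control cells and 6.37 and 7.16 FPKM in KD cells (-0.41, SE 0.12, limma adjusted p = 0.385), and MRPS36 (-0.27, SE 0.09, limma adjusted p = 0.450). MRPS36 carries a ribosomal name, but its protein is now assigned to the 2-oxoglutarate dehydrogenase complex.

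In control cells 1 MRP gene was called different with TNF-α, where 3.10% of all genes were higher and 1.14% lower. That gene was MRPS24, a small-subunit protein, at 0.970 and 0.310 FPKM without and 2.40 and 2.90 FPKM with TNF-α. These values rest on 38 and 14 reads against 100 and 117 reads. MRPS24 also shares 23.2% of its exon length with URGCP-MRPS24 on the same strand, where reads can be lost in counting. What part this had in the difference was not tested. The log2 fold change of FPKM + 1 was 1.18 (SE 0.19, limma adjusted p = 0.0139), which understates the change of such a low gene. In KD cells MRPS24 went from 0.367 and 0.337 FPKM to 2.55 and 3.002 FPKM (1.48, SE 0.19, limma adjusted p = 0.000332), so in control and in KD cells all libraries with TNF-α were above all without. The call in control cells was lost when only the 4 libraries compared were fitted (adjusted p = 0.0745), with no filter on low reads (0.0875) and without control TNF-α replicate 1 (0.0605) or 2 (0.113), with the same direction in each. No MRP gene was called lower by limma or by voom, and 4 MRP genes in all had an unadjusted p under 0.05. The median of the MRP genes was -0.02, and it was 0.10 without unstimulated control replicate 1 and -0.18 without replicate 2, so its sign rested on single libraries. MRPL12 gave -0.20 (SE 0.30), MRPL54 0.02 (SE 0.23) and MRPL28 -0.00037 (SE 0.20).

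In KD cells TNF-α went with higher levels of 51 MRP genes and lower levels of 7, where 31.1% of all genes were higher and 31.4% lower. This comparison shares the unstimulated KD libraries with the first one, so their values are not independent. The median log2 fold change was 0.62. Scaled to total reads, 37 genes were higher and 17 lower (20% and 43.8% of all genes), and with the GC and length correction 55 were higher and 2 lower (29.2% and 27.7% of all genes). MRPL12 rose from 17.96 and 9.12 to 44.6 and 44.1 FPKM (1.71, SE 0.30, limma adjusted p = 0.00162), MRPL54 by 1.62 (SE 0.23), MRPL41 by 1.49 (SE 0.20) and MRPS12 by 1.44 (SE 0.11). Corrected, these were 1.07, 1.01, 0.78 and 0.90, each still called. The largest falls were those of MRPL1 (-0.94, SE 0.12), MRPL50 (-0.54, SE 0.12) and MRPL19 (-0.53, SE 0.11). MRPL50 and MRPL19 turned sign after the GC and length correction (0.16 and 0.02), and MRPL1 did not (-0.48).

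The effect of knockdown differed between the conditions, by the interaction of KD and TNF-α, in 52 MRP genes. It was more positive with TNF-α in 46 and more negative in 6, where 23.8% and 22.3% of all genes were so called. With libraries scaled to total reads these counts were 36 and 10 (14.8% and 30.0% of all genes). All 46 were among the 50 that fell in unstimulated KD cells. The interaction is the KD difference with TNF-α minus that without, so it uses the same unstimulated libraries. The MRP median with TNF-α was 0.0025. The overlap with genes that fell or rose without TNF-α thus largely follows from the calculation and is not separate support. The largest interaction was that of MRPL12 (1.91, SE 0.42, limma adjusted p = 0.00871), followed by MRPL54 (1.61, SE 0.32), MRPL23 (1.43, SE 0.32), MRPL41 (1.43, SE 0.29) and MRPS12 (1.39, SE 0.15). The 6 negative ones were the 5 genes that rose without TNF-α, with MRPL1 first (-0.92, SE 0.18), and MRPS36 (-0.39, SE 0.13). After the GC and length correction, 52 were called positive and 1 negative (MRPL1, -0.50), against 19.7% and 15.3% of all genes. The largest values were then smaller, at 1.28 for MRPL12, 1.01 for MRPL54, 0.79 for MRPL23, 0.75 for MRPL41 and 0.87 for MRPS12.

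Other genes of mitochondrial translation did not all move with the MRP genes in unstimulated KD cells. Of all genes tested, 30.2% were lower and 29.8% higher in this comparison, and 28.1% and 23.7% with the GC and length correction. A list of 6 proteins of or at the mitoribosome with other names held DAP3, PTCD3, CHCHD1, AURKAIP1, GADD45GIP1 and OXA1L. Of these, 5 fell, among them AURKAIP1 (-1.37, SE 0.21) and GADD45GIP1 (-1.36, SE 0.15), and PTCD3 rose (0.72, SE 0.10). After the GC and length correction AURKAIP1 was at -0.70 and GADD45GIP1 at -0.76, both still called, and PTCD3 was at 0.10 and not called (limma adjusted p = 0.417). Of 29 assembly factors 17 fell (58.6%) and 4 rose (13.8%), with a median of -0.46. RCC1L (-1.12) and the methyltransferase MRM1 (-0.92) were among the falls. With the correction 14 fell and 2 rose (median -0.23), RCC1L was at -0.62 and MRM1 at -0.28. Of 15 translation factors 5 fell (33.3%, near the share of all genes) and 7 rose (46.7%). TUFM, the elongation factor that delivers tRNA, went from 175 and 140 to 74.1 and 67.2 FPKM (-1.14, SE 0.12), while LRPPRC, which stabilizes mitochondrial mRNAs, went from 8.75 and 10.8 to 27.2 and 29.7 FPKM (1.46, SE 0.11). The translation factors had a median of 0.41, and of -0.08 after the GC and length correction, when TUFM was at -0.59 and LRPPRC at 0.77, both still called. Of 20 aminoacyl-tRNA synthetases and related enzymes 10 fell (50.0%) and 1 rose (5.0%). The 1 that rose was IARS2 (0.80, SE 0.08, and 0.48 corrected). Among 11 genes of mitochondrial transcription and its regulators, 3 fell (27.3%, near the share of all genes) and 5 rose (45.5%). POLRMT, the mitochondrial RNA polymerase, fell by 0.84 (SE 0.08) on the log2 scale. TFAM, which packages mitochondrial DNA and acts in its transcription, rose by 1.03 (SE 0.09). GABPA, the DNA-binding part of GABP, rose by 1.43 (SE 0.12). Corrected, these were smaller and still called, at -0.28, 0.37 and 0.74.

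Of the 13 mitochondrially encoded mRNAs, the templates of these ribosomes, 10 rose in unstimulated KD cells and none fell, with a median of 0.86. That is 76.9% higher, against 29.8% of all genes. With the GC and length correction 12 rose and MT-ND3 fell (-0.89), with a median of 0.74. MT-ND5 went from 333 and 408 to 962 and 957 FPKM (1.38, SE 0.13, limma adjusted p = 0.000183). Cytosolic ribosomal protein genes fell in 72 of 83 (median -1.06), and nuclear-encoded respiratory chain genes in 65 of 80 (median -0.80), and in 78 (median -0.83) and 72 (median -0.70) with the correction. The counts before correction are 86.7% and 81.25% of these lists, against 30.2% of all genes. The MRP median of -0.67 thus lay between that of all genes and those of these lists, and differences between lists were not tested. None of these lists had a gene called between KD and control cells with TNF-α. The median of the mitochondrially encoded mRNAs was then 0.42, with all 13 above 0.

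**Figure D5:**
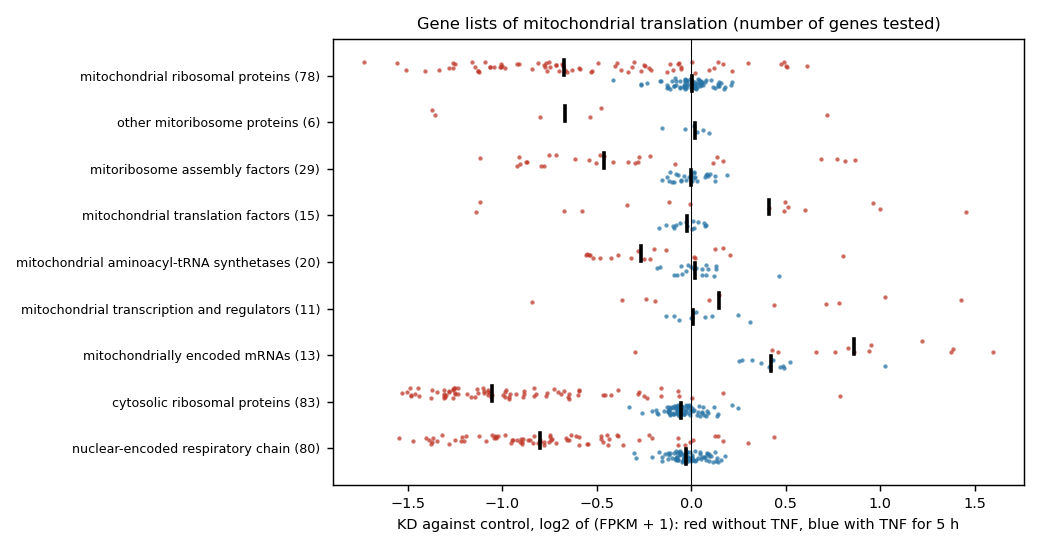
Log2 fold change of FPKM + 1 between KD and control cells (x axis) for each gene of 9 lists (y axis, number tested in parentheses), red without and blue with TNF-α for 5 h, with black bars at medians. Without TNF-α the medians of the MRP genes (-0.67), cytosolic ribosomal proteins (-1.06) and respiratory chain (-0.80) lay below 0 and that of the mitochondrially encoded mRNAs (0.86) above, and with TNF-α all but the last lay near 0.

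The genes whose log2(FPKM + 1) followed MRPL12 most closely over the 8 libraries, of all genes tested, were MRPS26 (Pearson r = 0.996), NT5C (0.995), CTSZ (0.994), PRKRIP1 (0.994) and PSENEN (0.994). MRPS26 was the only MRP gene among these 5, and MRPL34 (0.989) and MRPL54 (0.986) came next among the MRP genes. At the other end were MRPL42 (-0.952), MRPL19 (-0.939) and MRPS31 (-0.904). All of these values share the same 8 libraries and their depth and base composition.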

How the data were processed

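RNA of 8 libraries (4 groups of 2) was sequenced. The deposited tables give FPKM per gene. The submitters' processing notes name HISAT2 2.0.5, featureCounts 1.5.0-p3, DESeq2 1.20.0, CASAVA 1.8, fastp and GRCh38, without saying how each was used. Genes were matched to GENCODE 29 by identifier, and all 58735 agreed in position and exon length. FPKM times exon length came out as whole multiples of a per-library constant for 100% of values (tolerance 0.05), so read numbers and library totals could be recovered. The FPKM had been scaled by 0.925 to 1.21 times the library totals.

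Genes with at least 10 reads at median depth in at least 2 libraries and 15 in all were tested (16528 genes). The test was limma 3.58.1 (R 4.3.3) with an intensity trend on log2(FPKM + 1), with group means over all 8 libraries and Benjamini-Hochberg adjustment over all genes, and genes with an adjusted p under 0.05 were called. Fold changes on this scale understate those of low genes. The count test named in the study's methods was not run; the deposited values are FPKM, and voom on the recovered reads was the alternative on reads. Alternatives were a pseudocount of 0.1, no read filter, scaling to total reads or upper quartiles, a spline correction per library for GC content and length, voom on recovered reads, only the 4 libraries compared, a replicate block and leaving out each library. On simulated data for the comparison without TNF-α, 76% of 200 genes changed 2-fold among 15768 were recovered and 9 of the unchanged genes were called, and for the interaction 26% of 200 among 15777 were recovered and 6 of the unchanged genes were called. The simulation gave every gene a dispersion of 0.01, changed only these 200 genes and held no shift in GC content between groups. The real libraries differ from it in this, so the recovered shares and false calls need not hold for them. Total reads ranged from 15601098 to 18677023. The SEs come from the spread between libraries of a group as fitted by limma. That spread was 2.45 to 30.1 times the sampling noise of the reads. Named were MRPL12, the 5 largest called rises and falls in each comparison, the extremes in level, a fixed set of core proteins and, in other lists, up to 3 called genes with the largest change. Other genes of the lists were named after their values were seen (PTCD3, MRPS14 and MRPS17 at the threshold, MRPS36, MRPL34, MT-ND3, RUNX2 and the other called markers). The members and lists were chosen with earlier results of these data known. Sequences are from RefSeq.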

Additional observations from a re-analysis of the deposited data

Results flagged for a closer look

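The effect of knockdown on the MRP genes differed between cells with and without TNF-α, as tested by the interaction term over all 8 libraries. It was more positive with TNF-α in 46 MRP genes and more negative in 6, where 23.8% and 22.3% of all genes were so called. Among the genes described above, the interaction on the log2 scale was 1.91 for MRPL12, 1.61 for MRPL54, 1.43 for MRPL23, 1.43 for MRPL41, 1.39 for MRPS12, 1.38 for MRPL28, 1.36 for MRPS26, 1.24 for MRPS18A, 1.17 for MRPL11, 1.16 for MRPL14, 1.15 for MRPS34, 1.06 for MRPL58, 1.03 for MRPS2, 0.74 for MRPS7, 0.72 for MRPL10 and 0.65 for MRPS18B. It was -0.92 for MRPL1, -0.65 for MRPL50, -0.55 for MRPS31, -0.50 for MRPL42, -0.47 for MRPL19 and -0.39 for MRPS36. After the GC and length correction MRPL1 was still called (-0.50), MRPS31 was at -0.05 and not called, and MRPL50 (0.02), MRPL42 (0.34), MRPL19 (0.07) and MRPS36 (0.08) turned sign and were not called. The unstimulated KD libraries, which enter each of these values, are the ones with a lower GC content of reads and a higher mitochondrial share, and the part of these features was not tested beyond the GC and length correction.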

How the results depend on the processing

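The counts of MRP genes lower in unstimulated KD cells stayed between 45 and 61 in all alternatives. Of all 16528 genes tested, 4996 were lower in the main fit, 3456 scaled to total reads and 6273 with upper-quartile factors. With the GC and length correction 4642 of 16520 were lower. The count higher there (5) was 13 with libraries scaled to total reads, 3 with upper-quartile factors and 1 with the GC and length correction. Over all genes it was 4932 in the main fit and 6515, 3805 and 3921 in these alternatives. For TNF-α in control cells the count higher (1) was 0 without a read filter and 0 with only the 4 libraries compared. The count lower (0) was 1 with the GC and length correction. Over all genes the count higher was 512 in the main fit, 288 of 32613 without a filter and 202 with the 4 libraries. The count lower was 189 in the main fit and 298 with the correction. For TNF-α in KD cells the count lower (7) was 17 scaled to total reads, 2 with the GC and length correction and 12 with only the 4 libraries compared. Over all genes it was 5187 in the main fit and 7240, 4569 and 5509 in these alternatives. For the interaction the count lower (6) was 10 scaled to total reads, 1 with upper-quartile factors and 1 with the GC and length correction. Over all genes it was 3679 in the main fit and 4966, 2781 and 2534 in these alternatives. Over libraries left out in turn, the counts higher and lower ran from 3 to 6 and from 47 to 56 (KD without TNF-α), stayed at 0 and 0 (KD with TNF-α), and ran from 0 to 2 and 0 to 4 (TNF-α in control cells), 44 to 51 and 5 to 11 (TNF-α in KD cells) and 37 to 54 and 1 to 6 (interaction). The 3 came without unstimulated KD replicate 2. For TNF-α in control cells, the count higher was 2 without unstimulated control replicate 1 and 0 without either control library with TNF-α, and the 4 lower came without unstimulated control replicate 2. The 11 came without either unstimulated control library. The interaction's count lower was 1 without control TNF-α replicate 1, 3 without control TNF-α replicate 2 or unstimulated KD replicate 1, and 2 without unstimulated KD replicate 2 or either KD library with TNF-α. A library left alone in its group was assumed to vary like the others. The counts over all genes moved as well in the fits with a library left out.

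With the GC and length correction the sign turned for MRPL19 (-0.054), MRPL42 (-0.32) and MRPL50 (-0.051) in KD without TNF-α, for MRPL19 (0.016), MRPL42 (0.24), MRPL50 (0.16) and MRPS31 (0.011) in TNF-α in KD cells, and for MRPL19 (0.066), MRPL42 (0.34), MRPL50 (0.024) and MRPS36 (0.084) in the interaction. Scaling to total reads turned MRPL44 to -0.062 for TNF-α in KD cells. Of 1114 alternative values of called named genes, 1035 kept direction and call, 67 kept only direction and 12 turned. Some alternatives, such as the replicate block or leaving out a library of another group, cannot alter a fold change. The direction was fixed in advance there, so these counts overstate how firm the directions are.

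The replicate numbers are not stated to pair libraries. With a replicate block the counts higher and lower were 5 and 51 (KD without TNF-α), 0 and 0, 1 and 0, 51 and 7, and 46 and 5 (interaction). Over all genes they were, in the same order, 4859 and 4902, 6 and 4, 416 and 150, 5092 and 5117, and 3868 and 3577. Deviations of same-numbered libraries correlated at 0.35, 0.017, -0.13 and 0.0055 in the 4 comparisons of pairs of groups. A crossed pairing for TNF-α in control cells, added after the data were seen, gave 1 and 0.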
